A study of Mus musculus with 11 samples.

Results

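The mitochondrial respiratory chain genes described here encode subunits and assembly factors of the 5 complexes of oxidative phosphorylation in mouse T cells. The members are the probe sets whose single gene symbol in the platform annotation begins with Ndufa, Ndufb, Ndufc, Ndufs, Ndufv, Sdh, Uqcr, Cox4, Cox5, Cox6, Cox7, Cox8 or Atp5, with 1 probe set kept for each gene, the one of highest mean. This rule gave 87 of the 12393 genes on the arrays, from 160 probe sets, of which 38 belong to complex I, 7 to complex II, 8 to complex III, 17 to complex IV and 17 to complex V. A further 8 probe sets with such a prefix carry several symbols and were not used. Complex V appears under its Atp5 symbols, as in that annotation.

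T cells of B10.BR mice were cultured for 4 days with dendritic cells of C57BL/6 mice, a strain that differs from B10.BR at the major histocompatibility complex, and total RNA of the T cells was hybridised to single-colour oligonucleotide arrays. The dendritic cells came from Liver, MLN, PLN or Spleen, written here as the labels write them. Liver, MLN and PLN have 3 arrays each, numbered 2, 3 and 4, and Spleen has 2 arrays, numbered 3 and 4, which makes 11 arrays. All 11 share the T cell strain, the dendritic cell strain and the time, and none of them holds unstimulated T cells. The labels name neither the meaning of the number nor separate cultures or animals behind the arrays of an organ. Every p-value therefore measures only how these arrays vary, and that variation may be technical.

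The deposited intensities had the same trimmed mean of 500.2 on every array, median intensities of 144.3 to 170.4, and 12.9% to 16.5% of values below 16. The 9 measured T cell markers were all above the level that a gene had to reach to be tested, and the 4 hepatocyte markers Alb, Apoa1, Apoa2 and Ttr were all below it. All 10 markers of dendritic cells were above that level, and their summed intensity was 8035 to 8997 on arrays numbered 2, 10730 to 11760 on arrays numbered 3 and 6845 to 8506 on arrays numbered 4. Of the other markers, 5 of 6 for macrophages and monocytes (not Adgre1), 3 of 4 for B cells (not Pax5) and 1 of 3 for erythroid cells (Hemgn) were above it. In such bulk RNA, fewer cells of a type and less RNA per cell cannot be told apart.

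Complexes I and II pass electrons from NADH and succinate to ubiquinone, complex III passes them to cytochrome c, and complex IV passes them to oxygen. Complexes I, III and IV pump protons across the inner mitochondrial membrane, and complex V uses the returning protons to make ATP. Activated T cells draw on both glycolysis and oxidative phosphorylation while they grow, and most subunits of the chain are encoded in the nucleus, where the factors NRF1 and GABP (an ETS family factor, also called NRF2) are known to bind many of their promoters.

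Promoter sequences of 300 bases, from 250 before to 50 after each transcription start, were found in RefSeq (mouse build GRCm38.p6) for 73 of the 87 members, 78 promoters in all. The NRF1 motif, GCGCA and GCGC with any 1 base between them, was present on either strand in 18 of these promoters (23.1%), against 4.6% of all 32851 promoters in that table. The ETS motif CCGGAAG was present in 20 (25.6%, against 8.9%), and the YY1 motif AAGATGGC in 9 (11.5%, against 2.7%). A CCAAT box occurred in 30 promoters (38.5%, against 37.4%), and TATAAA in 8 (10.3%, against 13.6%). The 4 promoters shown belong to the members with the largest called differences between arrays numbered 4 and 3, 2 of them higher in number 4 (Ndufv3 and Atp5h) and 2 lower (Atp5md and Ndufaf4), with NRF1, ETS and YY1 motifs in capitals. They lie at chr17:31519865-31520164 on the plus strand, chr11:115419870-115420169 on the minus strand, chr19:47090598-47090897 on the minus strand and chr4:24897833-24898132 on the plus strand, in the order of the lines.
Ndufv3: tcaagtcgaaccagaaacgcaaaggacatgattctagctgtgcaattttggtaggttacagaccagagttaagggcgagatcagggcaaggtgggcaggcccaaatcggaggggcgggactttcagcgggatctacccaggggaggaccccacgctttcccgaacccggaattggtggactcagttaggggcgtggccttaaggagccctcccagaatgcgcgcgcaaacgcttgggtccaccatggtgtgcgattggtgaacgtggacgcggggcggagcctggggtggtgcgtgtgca
Atp5h: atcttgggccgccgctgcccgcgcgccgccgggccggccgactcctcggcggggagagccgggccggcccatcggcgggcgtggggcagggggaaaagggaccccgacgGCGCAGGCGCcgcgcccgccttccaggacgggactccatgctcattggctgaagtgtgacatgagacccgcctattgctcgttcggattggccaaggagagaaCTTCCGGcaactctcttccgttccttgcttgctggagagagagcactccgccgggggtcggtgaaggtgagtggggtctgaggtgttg
Atp5md: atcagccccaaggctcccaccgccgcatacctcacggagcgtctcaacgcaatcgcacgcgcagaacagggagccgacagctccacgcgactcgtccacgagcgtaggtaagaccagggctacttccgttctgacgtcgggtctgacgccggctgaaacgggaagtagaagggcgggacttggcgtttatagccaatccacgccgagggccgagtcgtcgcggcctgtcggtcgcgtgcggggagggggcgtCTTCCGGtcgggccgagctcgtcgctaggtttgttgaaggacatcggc
Ndufaf4: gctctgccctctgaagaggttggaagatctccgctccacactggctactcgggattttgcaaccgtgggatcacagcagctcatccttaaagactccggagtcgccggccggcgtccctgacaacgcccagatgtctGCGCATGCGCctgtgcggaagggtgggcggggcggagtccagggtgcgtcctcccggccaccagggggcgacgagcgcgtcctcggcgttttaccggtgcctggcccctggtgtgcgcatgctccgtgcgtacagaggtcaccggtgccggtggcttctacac
Atp5h holds the NRF1 motif from base 110 and the ETS motif, on the other strand, from base 213. Atp5md holds the ETS motif, again on the other strand, from base 253, and Ndufaf4 holds the NRF1 motif from base 138. The letters of the 3 motifs are not in the window of Ndufv3, and those of the YY1 motif are in none of the 4 windows, which says nothing about the factors themselves.

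Values below are log2(intensity + 16) after quantile normalisation, on which 1 unit is a factor of 2 for a bright probe set. The levels of different probe sets are not compared with each other. A gene was tested where its mean was in the upper 60% of all genes, which left 7436 genes and 85 of the 87 members. The members left out, Cox4i2 and Cox8b, are tissue isoforms of complex IV. The range over the 11 arrays had a median of 0.43 log2 units over the 85 tested members, from 0.09 for Cox5a to 1.21 for Ndufb1. Over all genes tested its median was 0.66, but the members were not matched to those genes for level, on which the range can depend. The number carried 61.5% of the members' summed variance and organ carried a further 16.7%, against 57.9% and 22.0% over all genes tested. The share of the number was 70.9% in complex I and 73.1% in complex V, and it was 37.0% in complex II, 59.9% in complex III and 37.6% in complex IV.

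**Figure D1:**
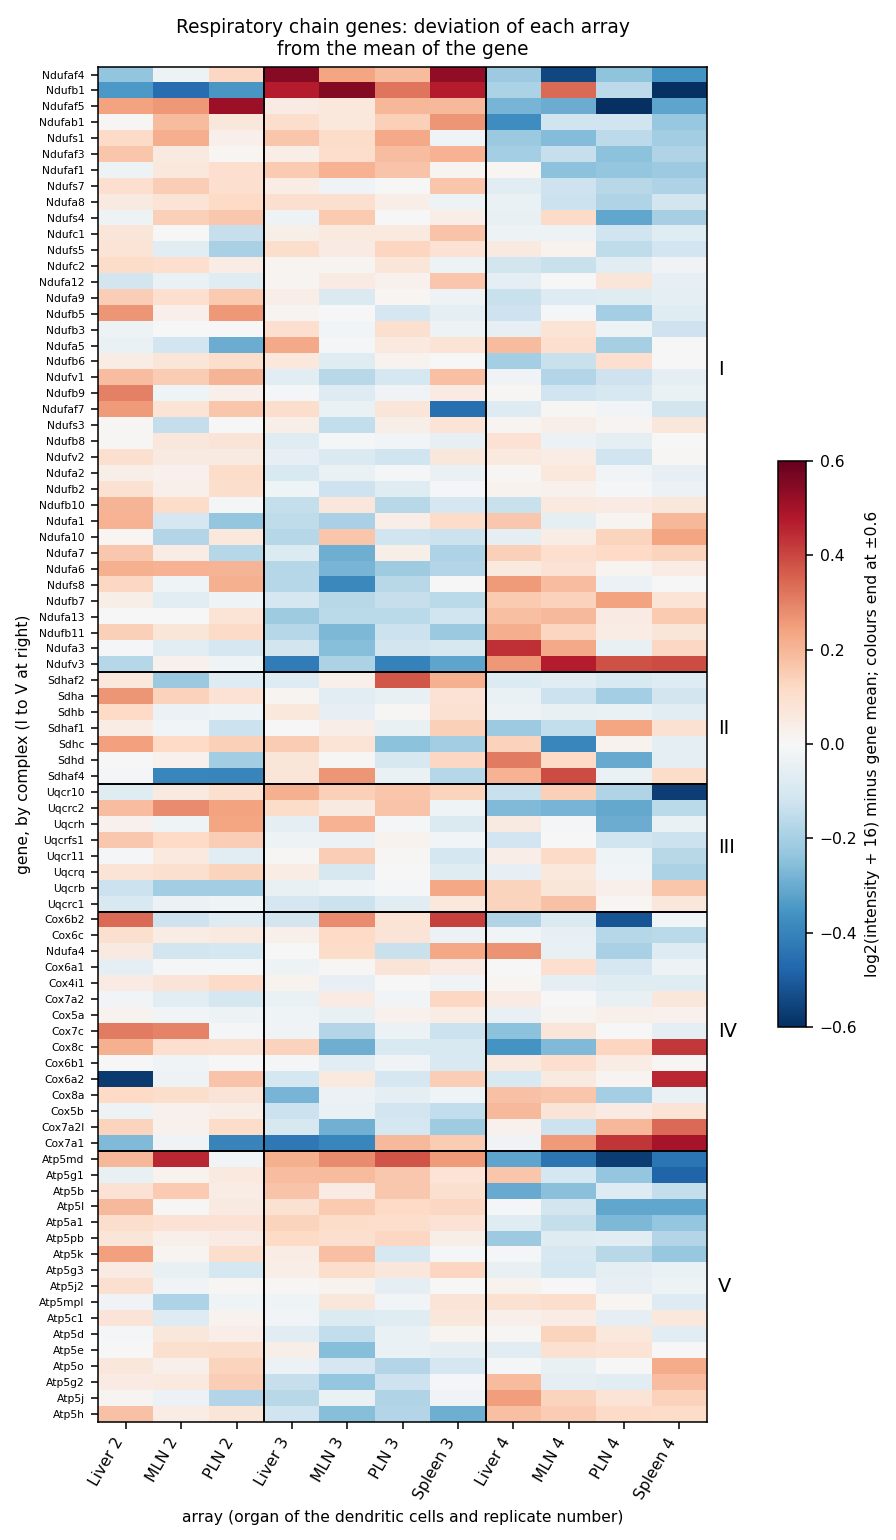
Each row is 1 of the 85 tested respiratory chain genes, grouped by complex and ordered within a complex by the difference of number 4 from number 3. Each column is 1 array, ordered by replicate number and then organ. Colour gives the log2(intensity + 16) of the array minus the mean of the gene over the 11 arrays. Colours change at the lines between numbers 2, 3 and 4 more than between organs of 1 number. The order of the rows itself places the largest differences between numbers 4 and 3 at the edges of each complex.

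The first question was whether the organ of the dendritic cells changed these genes in the T cells. No member was called: in the limma F-test over the 4 organs 0 of 85 members passed an adjusted p of 0.05 (0.0403% of all genes tested did), and 0 members had an unadjusted p under 0.05. For Liver against the mean of the other organs 0 of 85 members were called (background 0%), with 1 member at an unadjusted p under 0.05. For MLN the counts were 0 called (background 0.0941%) and 0 at an unadjusted p under 0.05, for PLN 0 called (background 0%) and 1, and for Spleen 0 called (background 0%) and 2. The 6 pairs of organs also gave 0 called members each, with 0 to 3 members at an unadjusted p under 0.05, where the background was 0.161% for Liver against MLN, 0.0134% for MLN against PLN and 0% for the other 4 pairs.

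With the replicate number as a block in the fit, the background was higher in most comparisons. It came to 1.99% in the F-test, 2.14% for Liver, 1.33% for MLN and 0.0134% for PLN against the other organs, and was 0% for Spleen. Of the pairs, Liver against MLN had a background of 4.13%, Liver against PLN 1.51%, MLN against Spleen 0.215%, MLN against PLN 0.148%, and the 2 others 0%. In each of these blocked fits 0 of 85 members were called, and 4 had an unadjusted p under 0.05 in the F-test, 6 for Liver, 6 for MLN, 4 for PLN and 7 for Spleen. The pair with the most such members was MLN against Spleen, with 9. The smallest adjusted p of any member was that of Ndufv3 for Liver against MLN, 0.0535 in limma with the block.

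The intervals give the size of difference that these arrays leave possible. For Liver against the other organs the 95% interval lay within 0.5 log2 units of 0 for 77 of 85 members and within 1 unit for 85, and with the block it lay within 0.5 units for 83. The median half-width of these intervals was 0.23 without the block and 0.13 with it. Intervals with Spleen were wider. For Spleen against the other organs they lay within 0.5 units for 71 members without the block and 78 with it. For Liver against Spleen the counts were 62 and 76. The members' median difference was 0.03 for Liver, 0.00 for MLN, -0.01 for PLN and -0.02 for Spleen, beside 0.01, -0.00, -0.01 and 0.01 over all genes tested. Single members ran from -0.38 to 0.25 in Liver, from -0.22 to 0.20 in MLN, from -0.27 to 0.13 in PLN and from -0.34 to 0.39 in Spleen. Spleen has no array numbered 2, so without the block its comparison also sets numbers against each other.

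**Figure D2:**
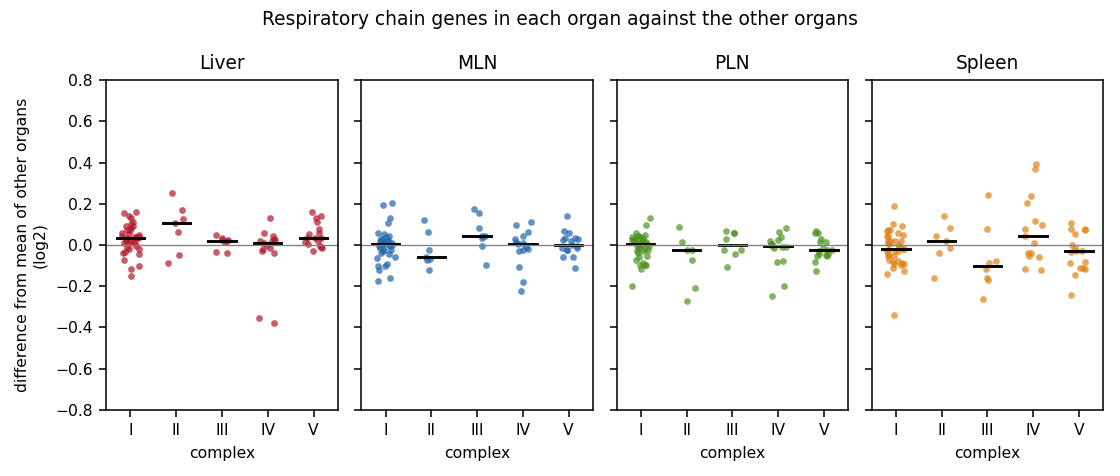
Each point is 1 tested member, placed by complex on the x axis, and the y axis gives the log2 difference between the arrays of 1 organ and the mean of the other organs, without a block. Bars are medians of a complex. The points lie between -0.38 and 0.39 and none was called in any organ.

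In succinate dehydrogenase, complex II, both membrane anchors were among the members of smallest p in an organ comparison. Sdhd, 1 of these anchors, read 11.17, 11.24 and 11.48 on the Liver arrays numbered 2, 3 and 4, and 11.19, 11.17 and 11.29 on the MLN arrays. It read 10.96, 11.07 and 10.87 on the PLN arrays and 11.29 and 11.12 on the Spleen arrays. The 3 PLN arrays were below the 8 others. The difference of PLN from the other organs was -0.27 (SE 0.09, unadjusted p = 0.0134 in limma, adjusted p = 1.0, and 0.458 with the block). Between Liver and PLN it was 0.33 (SE 0.11, adjusted p = 0.999, and 0.0920 with the block). The other anchor, Sdhc, read 10.60, 10.51 and 10.49 in Liver, against 10.47, 10.44 and 9.96 in MLN, 10.50, 10.11 and 10.38 in PLN and 10.15 and 10.30 in Spleen. Its Liver arrays overlapped those of PLN and of no other organ, and the difference of Liver from the others was 0.25 (SE 0.13, adjusted p = 1.0 in limma, and 0.289 with the block).

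Among the small subunits of complex III, Uqcr11 read 10.81, 10.89 and 10.86 in MLN, above all arrays of PLN (10.69, 10.75 and 10.72), Spleen (10.64 and 10.58) and Liver (10.74, 10.76 and 10.79). The difference of MLN from the other organs was 0.16 (SE 0.07, adjusted p = 1.0 in limma, and 0.183 with the block). Uqcrb, another small subunit, read 13.17 and 13.10 in Spleen, above the 9 other arrays, which lay between 12.73 and 13.07. Its Spleen difference of 0.24 (SE 0.09) was not called (adjusted p = 0.999 in limma, and 0.412 with the block), and its direction depended on the scaling, with -0.0593 when each array was centred on its median.

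In complex IV the muscle isoform Cox6a2 read 6.53, 6.99 and 7.01 in Liver, below all arrays of Spleen (7.25 and 7.55) and MLN (7.07, 7.16 and 7.15) and overlapping PLN (7.27, 7.0 and 7.12). The Liver difference was -0.38 (SE 0.15, adjusted p = 1.0 in limma) and the Spleen difference was 0.37 (SE 0.17, adjusted p = 0.999). Cox7a1, also a muscle isoform, had a Liver difference of -0.35 (SE 0.21). The mean levels of Cox6a2 and Cox7a1, 7.10 and 6.92, were close to the lowest level that was tested. Cox7a2, the isoform of most tissues, differed by 0.12 in Spleen (SE 0.05) and by -0.08 in PLN (SE 0.05). These directions turned with the scaling, to -0.14 in Spleen with the intensities as deposited, and to -0.23 in Spleen and 0.0055 in PLN with median centring. Ndufa4, a complex IV subunit named for complex I, differed by -0.20 in PLN (SE 0.10). None of these was called in limma in either fit, with adjusted p from 0.999 to 1.0 without the block and from 0.283 to 0.648 with it.

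In complex I the member with the lowest p in Spleen was Ndufaf7, an assembly factor that methylates a core subunit. It read 7.88 and 8.22 in Spleen and 8.25 to 8.58 on the 9 other arrays, which did not overlap Spleen, and its difference was -0.34 (SE 0.13, adjusted p = 0.999 in limma, and 0.537 with the block). Ndufa1, a small membrane subunit, differed by -0.17 in MLN (SE 0.09). The accessory subunit Ndufs4 and the core subunit Ndufs3 differed there by 0.19 (SE 0.11) and -0.12 (SE 0.08), and Ndufa5 differed by -0.20 in PLN (SE 0.11). None of these 4 was called in limma (adjusted p = 1.0).

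Arrays of 2 organs did not overlap for few members. For Liver against MLN this was so for 7 of 85 members (9.39% of all genes tested), for Liver against PLN for 4 (8.22%) and for MLN against PLN for 3 (4.24%). With only 2 Spleen arrays the counts were 15 against Liver (12.8%), 15 against MLN (14.8%) and 14 against PLN (11.4%). The members' counts were below the background for the 3 pairs without Spleen and above it for the 3 pairs with Spleen, where Spleen has no array numbered 2.

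The second question was how the members differed by replicate number, with organ as a term in the fit. The F-test over the 3 numbers called 41 of 85 members, beside 48.1% of all genes tested. With each array centred on its median in place of quantile normalisation, it called 15 of 84, beside 39.1% of all genes. Between numbers 4 and 3, 32 of 85 members were called (background 43.3%), 13 higher in number 4 (background 22.3%) and 19 lower (background 21.0%). With median centring these were 9 higher and 11 lower of 84, beside 36.3% of all genes called. By complex, 17 of 38 members of complex I were called, 0 of 7 of complex II, 2 of 8 of complex III, 3 of 15 of complex IV and 10 of 17 of complex V. The members' median difference was -0.02, beside 0.01 over all genes tested, and complexes I, IV and V each had called members in both directions.

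**Figure D3:**
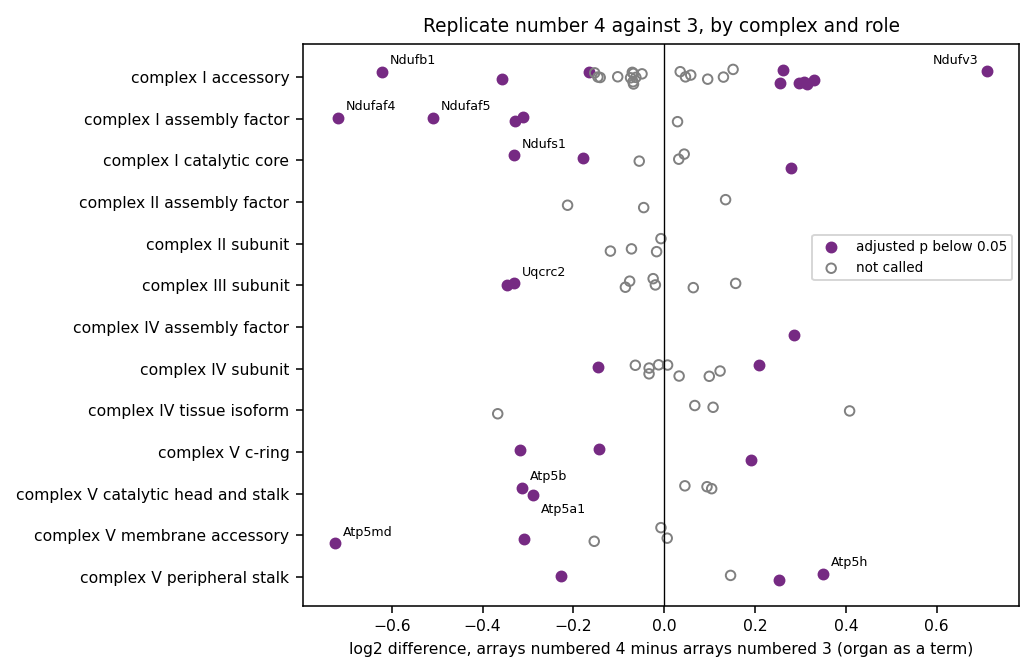
Each point is 1 tested member, placed by complex and role on the y axis, and the x axis gives the log2 difference of arrays numbered 4 minus arrays numbered 3. Filled points passed an adjusted p of 0.05. Accessory subunits of complex I lie on both sides of 0, from Ndufb1 at -0.62 to Ndufv3 at 0.71, and the 4 called assembly factors of complex I all lie below 0.

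Ndufv3, an accessory subunit of the NADH-oxidising end of complex I, differed most clearly by number. Arrays numbered 2 read 11.88, 12.07 and 12.02 for Liver, MLN and PLN. Arrays numbered 3 read 11.63, 11.86, 11.64 and 11.73 for Liver, MLN, PLN and Spleen, and arrays numbered 4 read 12.31, 12.52, 12.43 and 12.44 in the same order. The 3 numbers did not overlap, with number 4 highest and number 3 lowest, and within each number MLN read highest. Number 4 was above number 3 by 0.71 (SE 0.05, adjusted p = 1.09e-06 in limma) and above number 2 by 0.43 (SE 0.05, adjusted p = 0.000245), and number 3 was below number 2 by a difference of -0.28 (SE 0.05, adjusted p = 0.00455). With the block, the difference of Liver from MLN was -0.21 (SE 0.05), and Liver read below MLN within each of the 3 numbers.

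Of the 27 accessory subunits of complex I, 7 were called higher in number 4 than in number 3 and 3 lower, beside 22.3% and 21.0% of all genes tested. Beside Ndufv3 the higher ones were Ndufa3 (0.33, SE 0.07), Ndufb11 (0.31, SE 0.05), Ndufa13 (0.31, SE 0.05), Ndufb7 (0.30, SE 0.05), Ndufa6 (0.26, SE 0.06) and Ndufa7 (0.25, SE 0.08). Their other probe sets read -0.06, 0.28, -0.05 and 0.19 for Ndufa7, 0.08 for Ndufb7, 0.12 and 0.35 for Ndufb11, and 0.39 for Ndufa3. Ndufa13 is also known as a regulator of STAT3, and Ndufb7 and Ndufb11 sit in the membrane arm. Ndufb11 read 12.04, 11.97 and 12.01 on arrays numbered 2, then 11.73, 11.63, 11.77 and 11.67 on arrays numbered 3, and 12.12, 12.03, 11.94 and 11.97 on arrays numbered 4. Number 3 was below both other numbers without overlap. Ndufa6, which binds the acyl carrier protein, was also lowest in number 3, with 10.95, 10.95 and 10.95 in number 2, 10.57, 10.46, 10.53 and 10.56 in number 3, and 10.80, 10.83, 10.76 and 10.79 in number 4. Its difference of number 3 from number 2 was -0.42 (SE 0.06, adjusted p = 0.00149 in limma).

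The accessory subunits called lower were Ndufb1 (-0.62, SE 0.14), Ndufab1 (-0.36, SE 0.07) and Ndufa8 (-0.17, SE 0.06). Ndufb1 read 8.05, 7.94 and 8.05 on arrays numbered 2, then 8.87, 8.95, 8.72 and 8.87 on arrays numbered 3, and 8.21, 8.73, 8.24 and 7.74 on arrays numbered 4. Number 3 lay above number 2 without overlap, by 0.92 (SE 0.16, adjusted p = 0.00268 in limma), the largest difference of any member in any pair of numbers, while number 4 was spread over both. Ndufab1, the mitochondrial acyl carrier protein, was also lower in number 4 than in number 2 (-0.32, SE 0.07, adjusted p = 0.00797).

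Assembly factors help build complex I and are not part of it. Of the 5 among the members, 4 were called lower in number 4 than in number 3, beside 21.0% of all genes tested. Acad9 (-0.25, adjusted p = 0.203 in limma), Ecsit (-0.19, 0.155) and Timmdc1 (-0.06, 0.740), which also help build complex I, lie outside the prefixes and were not called. Ndufaf4 read 9.16, 9.36 and 9.51 on arrays numbered 2, then 9.94, 9.63, 9.58 and 9.92 on arrays numbered 3, and 9.17, 8.84, 9.15 and 9.03 on arrays numbered 4. Number 3 was above both other numbers without overlap. The difference of number 4 from number 3 was -0.72 (SE 0.11, adjusted p = 0.000322 in limma), and a second, dimmer probe set of the gene gave -0.88.

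Ndufaf5, an enzyme that hydroxylates a core subunit, read 8.32, 8.34 and 8.59 on arrays numbered 2, 8.13, 8.14, 8.27 and 8.27 on arrays numbered 3, and 7.80, 7.78, 7.44 and 7.76 on arrays numbered 4. The 3 numbers did not overlap, with number 2 highest and number 4 lowest. Number 4 was below number 2 by a difference of -0.74 (SE 0.13, adjusted p = 0.00207 in limma) and below number 3 by -0.51 (SE 0.12, adjusted p = 0.00471). Ndufaf3, the partner of Ndufaf4, and Ndufaf1 differed by -0.33 (SE 0.08) and -0.31 (SE 0.08) between numbers 4 and 3. Ndufaf7 differed by 0.03 (SE 0.10, adjusted p = 0.847).

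Of the 6 catalytic core subunits of complex I, the iron-sulphur subunits Ndufs1 and Ndufs7 were lower in number 4 than in number 3 (-0.33, SE 0.08, and -0.18, SE 0.06). Ndufs8, also an iron-sulphur subunit, was called higher (0.28, SE 0.09), but 2 of its other probe sets above the filter level read -0.01 and -0.32. Ndufv1, which binds the flavin that takes electrons from NADH, was lower in number 3 than in number 2 (-0.26, SE 0.07, adjusted p = 0.0285 in limma) and lower in number 4 than in number 2 (-0.32, SE 0.07, adjusted p = 0.00827). Its partner Ndufv2 differed by -0.13 and -0.09 in these comparisons and was called in neither (adjusted p = 0.146 and 0.296).

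**Figure D4:**
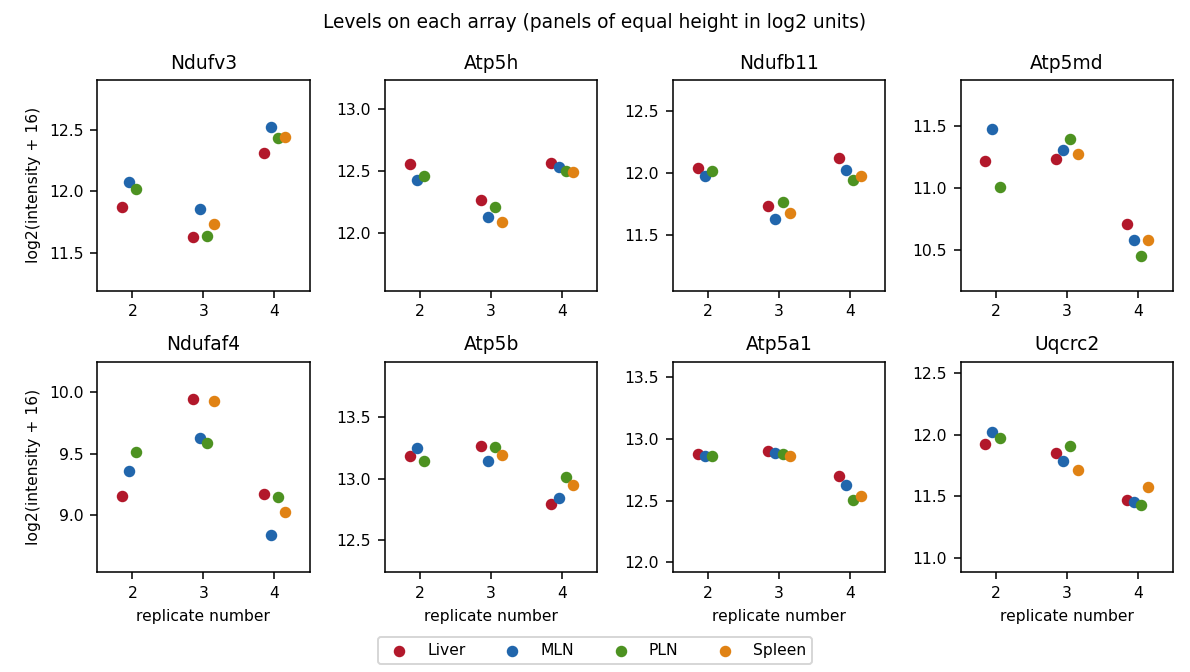
Each panel shows 1 gene, with replicate number on the x axis, log2(intensity + 16) on the y axis and 1 point for each array, coloured by organ of the dendritic cells. All panels have the same height in log2 units. Ndufv3 is highest in number 4, Atp5h and Ndufb11 are lowest in number 3, and Atp5md, Atp5b, Atp5a1 and Uqcrc2 are lowest in number 4.

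Complex II had 0 of 7 members called between numbers 4 and 3, with differences from -0.21 for Sdhaf2 to 0.14 for Sdhaf4. Sdha, the flavin subunit that oxidises succinate, read 11.70, 11.58 and 11.52 on arrays numbered 2, then 11.46, 11.37, 11.39 and 11.52 on arrays numbered 3, and 11.40, 11.31, 11.23 and 11.33 on arrays numbered 4. Number 4 was below number 2 without overlap, by a difference of -0.30 (SE 0.06, adjusted p = 0.00321 in limma), and number 3 was below number 2 by -0.18 (SE 0.06, adjusted p = 0.0491). A second, dimmer probe set of Sdha read 0.11 for number 4 minus number 3 and 0.07 for number 2 minus number 3. On that probe set number 4 was not below number 2. Sdhaf4, which protects free Sdha before assembly, read 8.79, 8.40 and 8.40 in number 2 and 9.0, 9.19, 8.76 and 8.90 in number 4. It was higher in number 4 (0.48, SE 0.12, adjusted p = 0.0117) although the Liver array numbered 2 overlapped. The iron-sulphur subunit Sdhb, the anchors Sdhc and Sdhd, and the assembly factors Sdhaf1 and Sdhaf2, which insert the iron-sulphur and flavin groups, were called between no pair of numbers.

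In complex III the core subunit Uqcrc2 read 11.92, 12.02 and 11.98 on arrays numbered 2, then 11.85, 11.79, 11.91 and 11.71 on arrays numbered 3, and 11.47, 11.46, 11.43 and 11.57 on arrays numbered 4. The 3 numbers did not overlap, with number 2 highest, and number 4 was below number 2 by a difference of -0.49 (SE 0.07, adjusted p = 0.000453 in limma) and below number 3 by -0.33 (SE 0.06, adjusted p = 0.000958). Its core partner Uqcrc1 differed by 0.16 between numbers 4 and 3 (SE 0.06, adjusted p = 0.0560). Uqcr10, a small subunit, was lower in number 4 than in number 3 (-0.35, SE 0.09, adjusted p = 0.0100), with the Spleen array numbered 4 lowest at 10.44 and the MLN arrays level at 11.14 and 11.14. Over the mean of its probe sets the difference was -0.22 and not called (adjusted p = 0.138). Uqcrb was higher in number 3 (0.18, SE 0.05, adjusted p = 0.0319) and in number 4 (0.24, SE 0.05, adjusted p = 0.00498) than in number 2, but over the mean of its probe sets neither passed (0.17, adjusted p = 0.0522, and 0.03, adjusted p = 0.767). The Rieske iron-sulphur subunit Uqcrfs1 was lower in number 4 than in number 2 (-0.23, SE 0.06, adjusted p = 0.0128).

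The isoforms of complex IV allowed pairs to be set side by side. Cox5a had the smallest range of all members, with 13.03 to 13.12 over the 11 arrays, and Cox5b, the other subunit of that name, was higher in number 4 than in number 3 (0.21, SE 0.05, adjusted p = 0.00356 in limma) with 12.66, 12.75, 12.67 and 12.64 in number 3 and 12.98, 12.87, 12.84 and 12.87 in number 4. Cox4i1 differed by -0.03, Cox6a1 by -0.03, Cox6b1 by 0.10, Cox7a2 by -0.01 and Cox8a by 0.12 between these numbers, and none of them was called. The muscle and testis isoforms Cox6a2, Cox6b2, Cox7a1 and Cox8c differed by 0.11, -0.37, 0.41 and 0.07 and were not called either, with intervals as wide as -0.70 to -0.03 for Cox6b2 and 0.02 to 0.80 for Cox7a1. Cox6a2 and Cox7a1 were close to the lowest level that was tested. Cox4i2, an isoform of lung, and Cox8b, of muscle, had deposited intensities of 57.0 to 176.1 and 4.2 to 23.1 and were not tested.

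Cox7a2l, a paralogue of the Cox7a subunits that joins complexes III and IV, read 11.24, 11.13 and 11.21 on arrays numbered 2, 11.01, 10.81, 11 and 10.89 on arrays numbered 3, and 11.13, 10.98, 11.30 and 11.44 on arrays numbered 4. Number 3 was below number 2 without overlap, by a difference of -0.30 (SE 0.08, adjusted p = 0.0272 in limma), and number 4 was above number 3 by 0.29 (SE 0.07, adjusted p = 0.00815) with the MLN array numbered 4 among those of number 3. Cox6c was called lower in number 4 than in number 3 (-0.15, SE 0.05, adjusted p = 0.020), and its second probe set read 0.21. Of the 10 subunits of complex IV that are not tissue isoforms, 2 were called, 1 in each direction.

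In complex V both large subunits of the head were lower in number 4 than in number 3. Atp5b, the beta subunit that makes ATP, read 13.18, 13.25 and 13.14 on arrays numbered 2, 13.26, 13.14, 13.26 and 13.19 on arrays numbered 3, and 12.79, 12.84, 13.01 and 12.95 on arrays numbered 4. Its partner, the alpha subunit Atp5a1, read 12.88, 12.86 and 12.86, then 12.90, 12.88, 12.88 and 12.86, then 12.70, 12.63, 12.50 and 12.54. For both genes every array numbered 4 was below the 7 others, and the difference of number 4 from number 3 was -0.31 for Atp5b (SE 0.05, adjusted p = 0.000678 in limma) and -0.29 for Atp5a1 (SE 0.04, adjusted p = 0.000277). A second probe set of Atp5a1 read only -0.05, and a much dimmer one read -0.31. The smaller head and stalk subunits Atp5c1, Atp5d and Atp5e were not called between any numbers.

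The stalk that holds the head in place was split. Atp5h, its subunit d, read 12.56, 12.43 and 12.46 on arrays numbered 2, 12.26, 12.13, 12.21 and 12.09 on arrays numbered 3, and 12.56, 12.53, 12.50 and 12.49 on arrays numbered 4. Number 3 was below both other numbers without overlap, and number 4 was above number 3 by 0.35 (SE 0.04, adjusted p = 7.86e-05 in limma), where a second probe set read 0.07. Atp5j, coupling factor 6, was higher as well (0.25, SE 0.05, adjusted p = 0.00249), while Atp5pb, subunit b, was lower (-0.23, SE 0.05, adjusted p = 0.00166). A second probe set of Atp5pb read only -0.04. Atp5o, which caps the head, was lower in number 3 than in number 2 (-0.21, SE 0.07, adjusted p = 0.0430).

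Of the accessory subunits in the membrane, Atp5md, also known as DAPIT, read 11.22, 11.47 and 11.01 on arrays numbered 2, 11.24, 11.31, 11.40 and 11.28 on arrays numbered 3, and 10.71, 10.58, 10.45 and 10.58 on arrays numbered 4. Every array numbered 4 was below the 7 others, and the difference was -0.72 from number 3 (SE 0.09, adjusted p = 4.94e-05 in limma) and -0.65 from number 2 (SE 0.10, adjusted p = 0.000665). Atp5l, subunit g, was lower in number 4 than in number 3 (-0.31, SE 0.07, adjusted p = 0.00257), and Atp5k, subunit e, was lower in number 4 than in number 2 (-0.22, SE 0.07, adjusted p = 0.0288).

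The 3 genes for subunit c of the rotor ring encode the same mature protein with different import signals, and they differed in direction. Between numbers 4 and 3 the difference was -0.32 for Atp5g1 (SE 0.09, adjusted p = 0.0119 in limma), -0.14 for Atp5g3 (SE 0.04, adjusted p = 0.0178) and 0.19 for Atp5g2 (SE 0.06, adjusted p = 0.0191). Atp5g1 read 10.89, 10.89, 10.86 and 10.78 in number 3 and 10.87, 10.60, 10.47 and 10.22 in number 4, with Liver the only organ whose array numbered 4 stayed within the range of number 3. Atp5g2 was also lower in number 3 than in number 2 (-0.25, SE 0.06, adjusted p = 0.0202).

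The other pairs of numbers gave fewer calls. Between numbers 3 and 2, 13 of 85 members were called (background 18.9%), 3 higher in number 3 (background 9.29%) and 10 lower (background 9.59%), and with median centring these were 2 higher and 1 lower of 84, beside 12.6% of all genes called. Between numbers 4 and 2, 24 were called (background 27.2%), 6 higher in number 4 (background 14.8%) and 18 lower (background 12.4%), and with median centring 2 higher and 4 lower of 84, beside 19.6% of all genes called. The median difference of the members was -0.05 for number 3 and -0.06 for number 4 against number 2, beside -0.00 and 0.01 over all genes tested. Beside the members already named, Ndufs1 (-0.31), Ndufb5 (-0.29), Ndufaf3 (-0.28), Ndufs7 (-0.26), Ndufa9 (-0.22) and Ndufc2 (-0.17) were lower in number 4 than in number 2, and Ndufa3 (0.25), Atp5j (0.21) and Ndufb7 (0.19) were higher. The 3 comparisons share arrays and are not independent of one another.

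The arrays of 2 numbers did not overlap for 29 members between numbers 3 and 2 (27.1% of all genes tested), 33 between numbers 4 and 2 (31.0%) and 27 between numbers 4 and 3 (37.5%). Within every organ separately, 16 members read higher and 27 lower in number 4 than in number 3 in all 4 organs, which is 50.6% of the members and compares with 54.7% of all genes tested. Between numbers 3 and 2 the share was 61.2% of the members against 51.2%, with 14 higher and 38 lower, and between numbers 4 and 2 it was 61.2% against 54.9%, with 19 higher and 33 lower.

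Another probe set was present for 17 of the 32 members called between numbers 4 and 3. Of 28 such probe sets above the filter level, 23 had the sign of the one used, and those that opposed it belonged to Cox6c, Ndufa7 and Ndufs8. By direction of the difference, 3 of 15 promoters of the members higher in number 4 held the NRF1 motif and 4 of 15 of the lower ones did. The ETS motif was in 4 and 3 of them, and the YY1 motif in 2 and 2.

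Other genes of mitochondrial metabolism were set beside the members between numbers 4 and 3, where 21.0% of all genes tested were called lower and 22.3% higher. Of 17 genes of the tricarboxylic acid cycle and pyruvate dehydrogenase, 8 were called lower in number 4 and 0 higher, with a median of -0.18. Suclg2 (-0.82), Dld (-0.58) and Idh3a (-0.56), which encode enzymes of the cycle, were called. Of 20 electron carriers and assembly factors outside the prefixes, 8 were lower and 0 higher. Among the lower ones were Dhodh (-0.93), which feeds electrons to ubiquinone, Gpd2 (-0.46), which does the same from glycerol phosphate, and Cyc1 (-0.42), a cytochrome of complex III. Of 74 mitochondrial ribosomal proteins 37 were lower and 1 higher, with a median of -0.22, and Mrps18b stood at -1.05. Of 21 genes taken for protein import by the prefixes Timm and Tomm, 7 were lower and 1 higher, with Timm17a at -0.75, Timm9 at -0.74 and Timm23 at -0.46. Timmdc1, an assembly factor that was not called, is counted both there and among the electron carriers and assembly factors.

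Of 13 regulators of mitochondrial genes 5 were lower and 0 higher, among them Pprc1 (-0.90), a coactivator, Gabpb1 (-0.73), the partner of GABP alpha, and Myc (-0.39). Of 7 carriers, pores and prohibitins of the mitochondrial membranes 4 were lower, with Phb2, a prohibitin that acts as a scaffold, at -0.35, Slc25a3, the phosphate carrier, at -0.27 and Vdac2 at -0.26. Sod2 (-0.52) and Prdx3 (-0.50) were lower and Gpx4 (0.39) higher among 5 antioxidant genes. Fatty acid oxidation had 5 of 10 genes higher and 0 lower and a median of 0.26, including Acadl (0.54), Hadha (0.52) and Hadh (0.44). Glycolysis gave 7 of 12 higher and 0 lower, with the glucose transporter Slc2a1 at 0.79, Pfkl at 0.52 and Hk1 at 0.48. The respiratory chain genes had 13 higher and 19 lower of 85, beside 22.3% higher and 21.0% lower over all genes tested. The 46 cytosolic ribosomal proteins had 3 higher and 4 lower, with Rps27l at -0.33. The lists of the mitochondrial ribosome, protein import and antioxidant genes also had called genes in both directions.

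**Figure D5:**
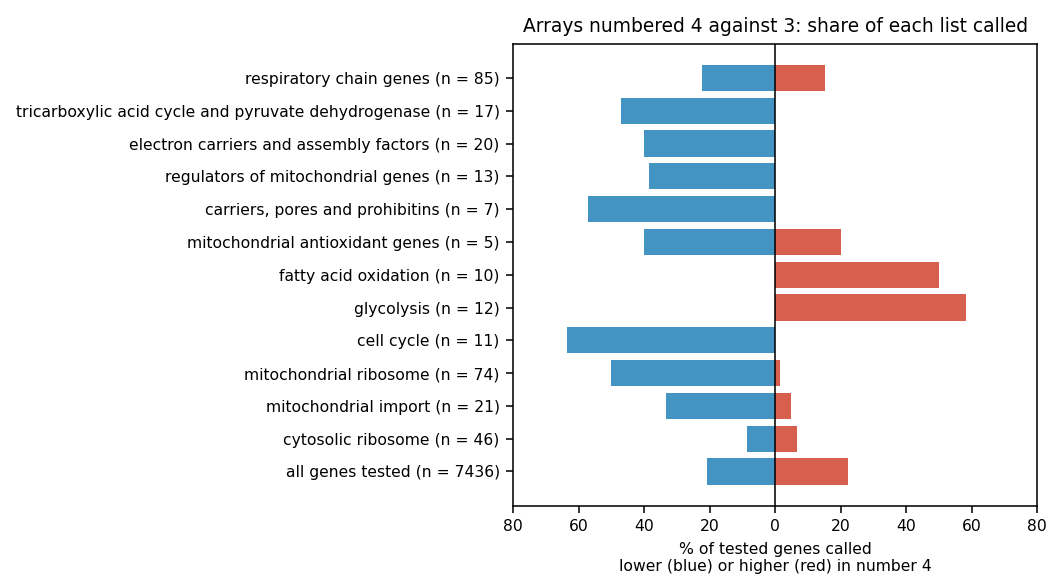
Bars give the share of the tested genes of each list that were called between arrays numbered 4 and 3, to the left for genes lower in number 4 and to the right for genes higher, with the number of genes tested beside each name. The respiratory chain genes have bars on both sides (19 of 85 lower, 13 of 85 higher), as do all genes tested (21.0% lower, 22.3% higher). The mitochondrial ribosome lies almost only to the left (37 of 74). Fatty acid oxidation (5 of 10) and glycolysis (7 of 12) lie only to the right.

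Across organs, none of these lists had a called gene in the F-test without the block. With the block, Gpd2 (adjusted p = 0.0395 in limma), Hk2 (0.00452) and Pfkp (0.0227) were called, the last 2 being enzymes of glycolysis, and Myc was not (0.0517). Of the cell type markers, Cd2 of T cells (0.0187), Lyz2 (0.0432) and Cd14 (0.0349) of macrophages and monocytes, and Hemgn (0.0109) of erythroid cells were also called across organs with the block.

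Markers of other cell types and of cell division also differed by number. Of the 10 dendritic cell markers 7 were lower and 2 higher in number 4 than in number 3, with Ccl22 at -1.83, Cd83 at -1.35 and Itgax at 1.85. Of the 9 T cell markers 4 were higher and 2 lower, with Cd3e at 0.91, and their summed intensity was 23650 to 24410 on arrays numbered 3 and 25810 to 33320 on arrays numbered 4. Of the 11 genes of the cell cycle 7 were lower and 0 higher, with Mcm2 at -0.66, Mcm3 at -0.54 and Pcna at -0.33. Of the tested markers of macrophages and monocytes 2 of 5 were lower, of B cells 2 of 3 were higher, and Hemgn, of erythroid cells, was lower (-0.89). Ratios of 3' to 5' probe sets for actin were 1.08 to 1.11 in number 3 and 1.08 to 1.15 in number 4. The part of these cell types, of cell division and of the handling of the RNA in the differences of the respiratory chain genes by number or organ was not tested.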

How the data were processed

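The authors deposited linear intensities, 1 for each probe set on each array. From the deposited values, the authors had scaled each array to a common mean after trimming 2% at each end. The software behind the intensities is not given in the sources used here.

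Of 22690 probe sets, 64 were controls and 20380 had 1 gene symbol. Intensities were transformed as log2(intensity + 16) and quantile normalised, controls included. Of 12393 genes, each represented by its probe set of highest mean, the upper 60% by mean (7436, above an intensity of 104.7) were tested. Members were taken by the symbols of the platform annotation. Other symbols were updated, and promoters taken, from RefSeq tables of GRCm38.p6.

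All 11 arrays entered each fit in limma 3.58.1 (R 4.3.3, lmFit and eBayes with a variance trend), with Benjamini-Hochberg adjustment over all tested genes at 0.05. Organs were compared without a block (7 residual degrees of freedom) and, as an alternative, with the replicate number as a block (5), and numbers with organ as a term. The fit was tested on simulated data.

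The numbers come from the array titles. Across genes, deviations from the organ means correlated at 0.412 to 0.731 in the 15 pairs that shared a number. The numbers were therefore taken to pair the arrays. In the 30 pairs that shared neither number nor organ the correlations were -0.708 to 0.0843. Deviations from an organ mean cancel within that organ, which lowers this latter range, so it is not separate support for the pairing.

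The respiratory chain genes and the other lists were chosen with earlier results of these data known. The rule for named genes took the members of smallest p in each comparison, the largest called differences between numbers, all of complex II, the paralogous isoforms, the untested members, and a few genes of smallest p in each other list. Further members were named after their values were seen. Alternatives were the deposited scaling, median centring, pseudocounts of 1 and 64, no filter, the mean of all probe sets of a gene, a fixed and a random block, and leaving out each array. The number of arrays limits the precision.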

Additional observations from a re-analysis of the deposited data

How the results depend on the processing

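The count of respiratory chain genes called between organs was 0 in every comparison under every alternative run: without a block, with the replicate number as a fixed block or as a random block (correlation 0.555), and without each array in turn in the fits without and with the fixed block. The replicate block, with 0 calls, changed no organ call of these genes.

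The counts by number depended on the scaling. With each array centred on its median, the F-test over numbers called 15 members where quantile normalisation gave 41. The share of all genes was 39.1% in place of 48.1%. Between numbers 4 and 3 median centring called 20 in place of 32 (lower 11 in place of 19), beside 36.3% of all genes in place of 43.3%. Between 4 and 2 it called 6 in place of 24 (higher 2, lower 4), beside 19.6% in place of 27.2%. Between 3 and 2 it called 3 in place of 13 (lower 1), beside 12.6% in place of 18.9%. With the intensities as deposited, 8 members were called between numbers 3 and 2 (lower 6), beside 17.6% of all genes called. With no filter on low values 7 members were called (higher 1, lower 6), and the share of all genes was not counted. The cause was not tested. No called difference by number changed sign under these scalings.

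Without each array in turn, 29 to 37 members were called in the F-test over numbers, 27 to 33 between numbers 4 and 3 (higher 11 to 14, lower 15 to 21), 12 to 24 between 4 and 2 (higher 2 to 6, lower 9 to 18) and 5 to 11 between 3 and 2 (higher 1 to 3, lower 4 to 9). The count between 3 and 2 fell by over 1.5 times when any array numbered 2 or 3 of Liver, MLN or PLN was left out. It was 8 when that array was either Liver one, 6 and 5 for the MLN arrays numbered 2 and 3, and 5 and 7 for the PLN arrays numbered 2 and 3. Between 4 and 2 the arrays numbered 2 mattered, with 15 calls when the one of Liver was left out and 12 each for MLN and PLN. Called in every one of 18 settings were 19 members between numbers 4 and 3, 4 between 4 and 2 (Atp5md, Ndufaf5, Ndufv3 and Uqcrc2) and 2 between 3 and 2 (Ndufa6 and Ndufb1). For the fits without an array and for the 18 settings together, the share of all genes called was not counted. The counts of members there have no background beside them.

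Differences of organs that had not been called reversed in a few cases. Cox7a2 in PLN was 0.0055 with median centring. In Spleen, Cox7a2 was -0.14 with the intensities as deposited and -0.23 with median centring, and Uqcrb was -0.0593 with median centring. Median centring also moved the members' median difference in Spleen to -0.15, beside -0.06 over all genes tested. Over the 49 values named for single members, 953 alternatives kept direction and call, 71 kept the direction and lost the call, and 4 reversed. The 49 include differences of organs, none of which was called in the main fit, so these could not lose a call. For them a kept call means only that the difference stayed uncalled. All 71 lost calls therefore belong to differences by number.

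The precision is limited by the number of arrays. For Liver against the other organs the widest 95% interval of a member reached 0.65 log2 units to either side without the block and 0.38 with it. For Spleen against the other organs it reached 0.74 and 0.45, and for Liver against Spleen 0.87 and 0.52.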
